A study of Mus musculus with 12 samples.

Results

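Ribosome biogenesis factors are the proteins that transcribe, modify, cut and fold ribosomal RNA and assemble it with ribosomal proteins. The gene list was a named set of 41 mouse genes. It was chosen by function and not by a threshold on these data, but with earlier results of these data known. A gene's level was the sum of its transcripts in the deposited table, matched by transcript ID to the gene symbols of the GENCODE vM21 annotation. All 41 were among the 12988 genes of the table and among the 12279 genes that passed the filter on low values and were tested.

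Mouse embryonic fibroblasts (MEF), which are connective tissue cells grown from the mouse embryo, were profiled by RNA sequencing of messenger RNA, enriched by poly(A) selection or, as the labels also allow, by removal of ribosomal RNA. WT MEF and MEF labelled HSF1 KO, for a knockout of the heat shock transcription factor HSF1, were each grown without LiCl or with 20 mM LiCl for 48 h, which gave 4 groups of 3 libraries and are called wild type and knockout in what follows. LiCl inhibits the kinase GSK3 and is used to activate WNT/β-catenin signaling. The strain, the passage and the deleted part of Hsf1 were not stated in the sources used here. Nothing said whether libraries of the same group were separate cultures either, so the spread on which the p-values rest may be technical. Each genotype was a population of cultured cells, how the HSF1 KO MEF were derived was not stated, and the study elsewhere writes them as HSF1+/−, so whether 1 or both copies of Hsf1 are disrupted was not resolved here. HSF1 KO is used as the label gives it, and a difference between HSF1 KO MEF and WT MEF covers everything in which these cells differed.

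Ribosome assembly starts in the nucleolus, where RNA polymerase I copies the long ribosomal RNA precursor. Small nucleolar ribonucleoproteins (snoRNPs) methylate it or turn its uridines into pseudouridines, the small subunit processome folds and cuts the part that becomes the small (40S) subunit, and further sets of factors build the large (60S) subunit. Late factors finish both subunits on their way to the cytoplasm. Cells that grow and divide need many ribosomes, and the transcription factor MYC is known to activate many genes of this pathway, so the 41 genes were set beside Myc.

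Levels are in FPKM, the fragments per kilobase of transcript scaled to the mapped fragments of the library, which is a share of the library per transcript length. Values of single libraries stand in the order replicate 1, replicate 2 and the library with no number, and means carry the SD of n = 3. Differences are in log2(FPKM + 1) with their SE, which understates the change of genes near 1 FPKM. A gene was called higher or lower at an adjusted p below 0.05, from limma with Benjamini-Hochberg adjustment over the 12279 genes. The libraries summed to between 344208 and 370025 FPKM. Across genes, libraries correlated (Pearson) at 0.976 to 0.983 within a group and at 0.823 to 0.933 between groups. The number of reads behind a value is unknown. Hsf1 stood at 11.1, 7.96 and 8.17 FPKM in wild type and 0.939, 3.89 and 2.07 in the knockout, where it was lower in every library, and at 14.5, 13.3 and 11.2 and 3.65, 7.64 and 5.92 with LiCl, also without overlap. The difference between the genotypes was −1.70 ± 0.31 without LiCl (adjusted p = 0.00142) and −1.10 ± 0.31 with LiCl (adjusted p = 0.0159), so Hsf1 RNA was reduced and not absent. All 10 fibroblast markers were above 0 in every library, but most were lower with LiCl, such as Col1a1, at means of 988 and 135 FPKM without and with LiCl in wild type and 1016 and 264 FPKM in the knockout. Vim, which did not pass in either genotype, averaged from 493 to 788 FPKM in the 4 groups. Without LiCl, 6 of the 10 markers were lower in the knockout than in wild type and 1 was higher (20.4% and 17.8% of all genes). Dcn, among the lower ones, averaged 933 FPKM in untreated wild type and 43.5 FPKM in the untreated knockout. The 4 libraries with no number deviated from their group means together, with correlations across genes of 0.125 to 0.195, where those among libraries sharing the number 1 or 2 were −0.0101 to 0.138.

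LiCl raised most ribosome biogenesis genes in both genotypes. Of the 41, 36 were higher with LiCl in wild type and 34 in the knockout, and none was lower in either (limma). Among all genes tested, 38.1% were higher and 27.1% lower in wild type, and 36.5% and 21.1% in the knockout. The same 34 genes rose in both, against 28.2% of all genes. Utp18 and Ltv1 were called in wild type alone, and Polr1a, Nop56, Nop10, Wdr75 and Rrp1b in neither. Without any test, 37 of the 41 had all 3 LiCl libraries of wild type above all 3 untreated ones, and 34 did in the knockout, where the shares of all genes were 40.8% and 39.0%.

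The summed level of the 41 genes rose with LiCl from 763 ± 18.2 to 1293 ± 52.0 FPKM in wild type and from 1054 ± 24.6 to 1518 ± 25.9 FPKM in the knockout. The 4 groups did not overlap, and wild type without LiCl was the lowest. Npm1 made up the largest part, and without it the sum was 567 ± 7.12 and 976 ± 10.7 FPKM in wild type, and 745 ± 24.6 and 1106 ± 13.3 FPKM in the knockout. A level of 39 of the 41 genes was lowest in wild type without LiCl, and 31 were highest in the knockout with LiCl. The mean rose at least 2-fold with LiCl for 11 genes in wild type and for 7 in the knockout, where 17.7% and 12.9% of all genes did.

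The median difference of the 41 genes was 0.63 in wild type and 0.54 in the knockout, where the median of all genes tested was 0.13 and 0.16. The libraries with LiCl thus sat above the others for the middle gene too, and scaling every library by the median of its ratios to the other libraries brought the median of all genes to −0.02 and −0.01 and that of the 41 genes to 0.46 and 0.36. With that scaling 34 of the 41 were higher in wild type, without Nop58 and Bysl, and 25 in the knockout, without Nop58, Dkc1, Nhp2, Gar1, Npm1, Nolc1, Utp3, Wdr12 and Ebna1bp2, and none was lower. Over all genes it moved the calls in wild type from 4680 higher and 3330 lower to 3804 and 3983, and in the knockout from 4480 and 2592 to 3230 and 3464. FPKM are shares, so a change in the total RNA of a cell was not measured, and in bulk cultures fewer cells of a type and less RNA per cell cannot be told apart.

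**Figure D1:**
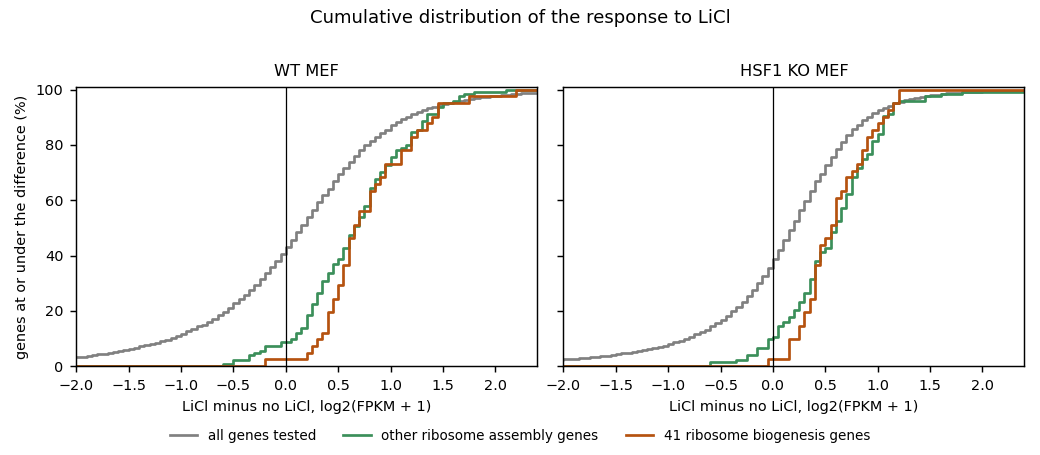
Cumulative distribution of the difference in log2(FPKM + 1) with LiCl in wild type and the knockout, for all 12279 genes tested, 124 other ribosome assembly genes and the 41 ribosome biogenesis genes. The curves of both ribosome sets lie to the right of the curve of all genes, and the medians of the 41 genes are 0.63 and 0.54.

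Promoters of 4 genes on which the results turn are shown because the study searched promoters for heat shock elements and because MYC and its partner MAX bind the E-box. Each run holds 250 bases before and 50 bases after a RefSeq transcription start, 5′ to 3′ on the strand of the gene in GRCm38.p6. Capitals mark the E-box CACGTG and the heat shock element GAANNTTC, which was searched with 1 further base on either side. Rrp9 had the largest rise in wild type (chr9:106477059-106477358), Utp20 the largest of the small subunit processome (chr10:88826765-88827064) and Tsr1 the difference between genotypes with the smallest adjusted p (chr11:74897830-74898129). Utp18 was 1 of 2 genes with both motifs (chr11:93885717-93886016).
Rrp9: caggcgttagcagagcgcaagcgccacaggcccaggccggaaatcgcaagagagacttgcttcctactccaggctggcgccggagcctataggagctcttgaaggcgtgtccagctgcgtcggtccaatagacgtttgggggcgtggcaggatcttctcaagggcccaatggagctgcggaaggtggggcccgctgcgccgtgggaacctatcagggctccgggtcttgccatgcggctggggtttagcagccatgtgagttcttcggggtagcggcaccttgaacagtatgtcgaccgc
Utp20: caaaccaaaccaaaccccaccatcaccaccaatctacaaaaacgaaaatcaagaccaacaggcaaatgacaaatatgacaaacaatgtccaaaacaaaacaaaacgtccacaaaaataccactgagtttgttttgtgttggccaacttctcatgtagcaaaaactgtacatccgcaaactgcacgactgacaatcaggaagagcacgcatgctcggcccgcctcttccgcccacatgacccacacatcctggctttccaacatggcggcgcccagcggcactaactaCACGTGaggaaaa
Tsr1: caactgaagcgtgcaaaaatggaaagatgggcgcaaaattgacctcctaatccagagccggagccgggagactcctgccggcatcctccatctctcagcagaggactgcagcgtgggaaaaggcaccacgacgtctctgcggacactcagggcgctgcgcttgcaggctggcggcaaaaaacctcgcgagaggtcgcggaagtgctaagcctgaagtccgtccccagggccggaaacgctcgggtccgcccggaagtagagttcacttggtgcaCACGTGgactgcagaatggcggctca
Utp18: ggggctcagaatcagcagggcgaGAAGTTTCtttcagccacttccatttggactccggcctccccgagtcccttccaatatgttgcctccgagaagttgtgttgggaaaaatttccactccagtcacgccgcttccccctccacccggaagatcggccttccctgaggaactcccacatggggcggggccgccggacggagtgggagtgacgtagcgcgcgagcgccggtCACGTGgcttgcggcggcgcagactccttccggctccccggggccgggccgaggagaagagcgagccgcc

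The Rrp9 window held neither motif, those of Utp20 and Tsr1 held an E-box shortly after the start, and that of Utp18 held an E-box just before the start and a heat shock element near its far end. Both motifs read the same on both strands. A window was found for 35 of the 41 genes, and none was found for Bop1, Npm1, Rrp12, Fbl, Utp6 and Rrs1. An E-box was in the windows of 8 of the 35 (22.9%), against 11.7% of all genes tested that had a window and 8.09% of all 27025 genes with a window in the RefSeq set. The 8 were Ltv1, Nop2, Pes1, Tsr1, Utp18, Utp20, Utp4 and Wdr43. A heat shock element was in 4 of the 35 (11.4%), against 6.77% of the genes tested and 8.98% of all genes with a window, and the 4 were Ltv1, Nob1, Utp18 and Wdr12. The median difference with LiCl in wild type was 0.87 for the 8 genes with an E-box and 0.63 for the 27 without, where it was 0.29 for the 1123 genes tested with an E-box and 0.12 for the 8471 without. In the knockout the 4 medians were 0.60, 0.50, 0.23 and 0.17. For the 4 genes with a heat shock element and the 31 without, the medians were 1.12 and 0.60 in wild type. They were 0.34 and 0.56 in the knockout, where the 4 include Utp18, which had a single low library with LiCl. For the 649 genes tested with a heat shock element and the 8945 without, the medians were 0.20 and 0.14 in wild type. In the knockout these were 0.16 and 0.17. Differences between these medians were not tested. A match gives the letters only and was not a measure of binding.

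Rrp9 and the other proteins of box C/D snoRNPs spanned from the largest rise in wild type to one of the smallest. Rrp9, a protein of the U3 snoRNP, stood at 6.71, 4.43 and 6.48 FPKM in wild type and 28.0, 29.9 and 31.8 with LiCl. In the knockout it stood at 16.4, 11.2 and 12.6 FPKM and 30.1, 35.7 and 20.3 with LiCl. LiCl libraries were above untreated ones in both genotypes, by 5.09-fold and 2.14-fold of the means, and the untreated knockout libraries were above the untreated wild type libraries. The rise was 2.18 ± 0.21 in wild type (adjusted p = 3.96e-06) and 1.03 ± 0.21 in the knockout (adjusted p = 0.00153), and the wild type response was larger by 1.16 ± 0.29 (adjusted p = 0.0122).

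Fbl encodes fibrillarin, the methyltransferase of the box C/D snoRNPs. It stood at 23.9, 29.6 and 27.7 FPKM in wild type and 56.1, 56.6 and 60.3 with LiCl, and at 43.3, 39.4 and 40.5 FPKM in the knockout and 71.2, 66.8 and 69.6 with LiCl. No group overlapped another, and the order was wild type, the knockout, wild type with LiCl and the knockout with LiCl. The rise was 1.07 ± 0.08 in wild type (adjusted p = 3.69e-07) and 0.74 ± 0.08 in the knockout (adjusted p = 1.11e-05). The difference of the rises, 0.33 ± 0.11, passed narrowly (adjusted p = 0.0394) and kept its call in 9 of 25 alternatives.

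Nop58 and Nop56 are the core proteins that hold the box C/D particle together. Nop58 stood at 8.65, 8.91 and 8.73 FPKM in wild type and 9.22, 10.6 and 10.9 with LiCl, and at 13.4, 13.2 and 12.1 FPKM in the knockout and 16.5, 16.4 and 14.5 with LiCl. Its groups did not overlap and genotype separated them more than LiCl did, with rises of 0.20 and 0.27 (adjusted p = 0.0487 and 0.0146) that both missed the threshold after median-of-ratios scaling, that in wild type also without any 1 of 9 libraries (adjusted p up to 0.151), and that in the knockout also without its untreated library that has no number (0.23, adjusted p = 0.054) or replicate 1 with LiCl (0.24, adjusted p = 0.0542). Nop56 stood at 35.2, 28.2 and 27.4 FPKM in wild type and 50.9, 59.9 and 34.3 with LiCl. Knockout libraries stood at 63.1, 43.5 and 36.9 FPKM and 76.3, 44.0 and 54.3 with LiCl. The LiCl libraries overlapped the untreated ones in both genotypes (adjusted p = 0.0514 and 0.386). Nop56 was split over 6 transcripts, of which ENSMUST00000136621.8 was listed at 0 in 4 libraries and held from 8.89 to 28.8 FPKM in the other 8, and its part in the spread of the sum was not tested. In wild type the difference passed without the LiCl library that has no number (0.86, adjusted p = 0.0153), without 4 single knockout libraries and for the highest transcript alone (1.32, adjusted p = 0.0063).

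**Figure D2:**
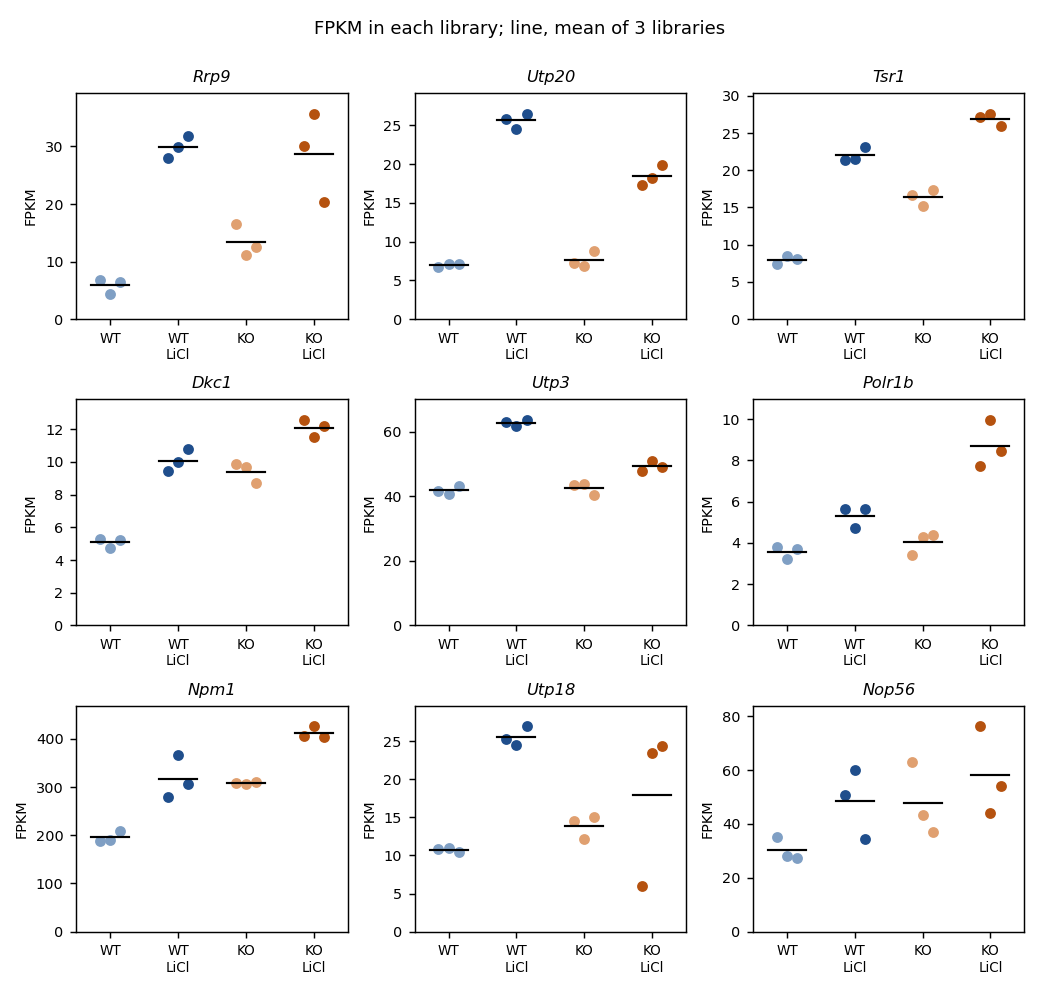
FPKM of 9 genes in each of the 12 libraries (points), with the group mean as a line and the axis from 0. LiCl libraries lie above untreated ones in both genotypes for Rrp9, Utp20, Tsr1, Dkc1, Utp3, Polr1b and Npm1. Utp18 has 1 low library in the knockout with LiCl, and the Nop56 libraries with and without LiCl overlap.

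Of the box H/ACA proteins, which make pseudouridine in ribosomal RNA and bind telomerase RNA, Dkc1 and Nhp2 rose more in wild type, where they had started lower. Dkc1 encodes dyskerin, the pseudouridine synthase. It stood at 5.31, 4.75 and 5.22 FPKM in wild type and 9.44, 10.02 and 10.8 with LiCl, and at 9.87, 9.66 and 8.70 FPKM in the knockout and 12.6, 11.5 and 12.2 with LiCl. The untreated knockout lay near wild type with LiCl, and the LiCl libraries were above the untreated ones in both genotypes. The rise was 0.86 ± 0.08 in wild type (adjusted p = 2.76e-06) and 0.33 ± 0.08 in the knockout (adjusted p = 0.00397), with a difference of 0.53 ± 0.11 (adjusted p = 0.0042).

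Nhp2, which binds the RNA of the particle, stood at 17.3, 17.7 and 15.1 FPKM in wild type and 30.5, 31.4 and 26.8 with LiCl. Knockout libraries stood at 32.7, 34.4 and 29.8 FPKM and 39.4, 43.0 and 39.3 with LiCl. All LiCl libraries were higher, and the rise of 0.79 in wild type exceeded that of 0.32 in the knockout by 0.47 ± 0.12 (adjusted p = 0.0133). Gar1 stood at 7.47, 6.44 and 9.93 FPKM in wild type and 12.9, 13.7 and 10.8 with LiCl, and at 7.62, 9.34 and 10.7 FPKM in the knockout and 15.5, 16.1 and 11.2 with LiCl. It rose by 0.60 and 0.57 (adjusted p = 0.0123 and 0.018) with wide libraries that did not overlap within a genotype, and the gene was split over 3 transcripts. The call of Gar1 was lost in wild type without untreated replicate 2 (0.48, adjusted p = 0.0523) and for the highest transcript alone (0.20, adjusted p = 0.435), and in the knockout without untreated replicate 1 (0.46, adjusted p = 0.0719) or replicate 1 (0.51, adjusted p = 0.0617) or 2 (0.48, adjusted p = 0.0647) with LiCl. Nop10, the smallest protein of the particle, stood at 24.9, 24.9 and 32.8 FPKM in wild type and 33.0, 35.4 and 36.6 with LiCl, and at 23.9, 34.7 and 26.6 FPKM in the knockout and 35.6, 28.4 and 35.0 with LiCl. The libraries overlapped in the knockout, and neither difference, 0.35 or 0.22, passed (adjusted p = 0.0603 and 0.226). That in wild type passed without its untreated library that has no number (0.47, adjusted p = 0.0176) or replicate 1 (adjusted p = 0.049) or 2 (adjusted p = 0.0301) of the untreated knockout, and that in the knockout passed without the latter (0.37, adjusted p = 0.0445).

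All 3 nucleolar phosphoproteins rose in both genotypes, and Npm1 and Ncl had the highest levels of the 41 genes. Npm1, nucleophosmin, a chaperone of the nucleolus, stood at 188, 190.5 and 208 FPKM in wild type and 279, 367 and 306 with LiCl, and at 309, 307 and 311 FPKM in the knockout and 405, 427 and 404 with LiCl. Ncl, nucleolin, which binds the ribosomal RNA precursor, stood at 49.1, 50.8 and 49.7 FPKM in wild type and 64.5, 66.8 and 70.3 with LiCl. In the knockout Ncl stood at 72.9, 71.0 and 71.3 FPKM and 91.6, 96.8 and 94.8 with LiCl. LiCl and knockout each went with a higher level of both genes, without overlap within a genotype or a treatment. Nolc1, which carries snoRNPs to the nucleolus, stood at 22.1, 21.5 and 19.9 FPKM in wild type and 29.8, 26.7 and 27.5 with LiCl, and at 26.8, 24.4 and 26.6 FPKM in the knockout and 36.3, 34.6 and 30.8 with LiCl. Rises in wild type were 0.69, 0.42 and 0.39 for Npm1, Ncl and Nolc1 and those in the knockout were 0.41, 0.39 and 0.37, with adjusted p from 1.43e-05 (Ncl) to 0.00203 (Npm1). No difference between the rises passed.

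RNA polymerase I was represented by its largest catalytic subunits. Polr1b stood at 3.82, 3.23 and 3.71 FPKM in wild type and 5.63, 4.73 and 5.63 with LiCl, and at 3.44, 4.31 and 4.38 FPKM in the knockout and 7.71, 9.97 and 8.48 with LiCl. LiCl libraries were higher in both genotypes, by 0.46 in wild type (adjusted p = 0.00502) and 0.95 in the knockout (adjusted p = 4.85e-05). It was the single gene of the 41 called for a larger response in the knockout, at −0.48 ± 0.17 for wild type minus knockout (adjusted p = 0.0492), and that call held in 7 of 25 alternatives. In replicate 2 of the knockout with LiCl a shorter transcript held 3.71 FPKM that was at or below 0.0935 FPKM elsewhere. Polr1a stood at 2.42, 0.878 and 4.98 FPKM in wild type and 4.23, 4.80 and 5.85 with LiCl, and at 3.41, 5.65 and 5.76 FPKM in the knockout and 9.04, 4.99 and 9.61 with LiCl. The libraries of Polr1a overlapped in both genotypes, and neither difference passed (adjusted p = 0.0797 and 0.226), although that in wild type did without its untreated library that has no number (1.22, adjusted p = 0.00791).

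The small subunit processome, the large particle that folds and cuts the precursor of the small subunit, held 11 of the genes. Of these 10 rose in wild type and 9 in the knockout, with medians of 0.91 and 0.76. Utp20, a very long scaffold protein, stood at 6.73, 7.17 and 7.10 FPKM in wild type and 25.9, 24.6 and 26.5 with LiCl. In the knockout it stood at 7.19, 6.87 and 8.85 FPKM and 17.3, 18.2 and 19.9 with LiCl. Untreated libraries of the genotypes overlapped, whereas with LiCl those of wild type were all higher. The rise was 1.74 ± 0.09 in wild type (adjusted p = 2.96e-08) and 1.17 ± 0.09 in the knockout (adjusted p = 1.18e-06), a difference of 0.56 ± 0.13 (adjusted p = 0.00669).

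Utp3, known in yeast as Sas10, showed the same order at a smaller size, with 41.9 ± 1.19 FPKM in wild type, 62.9 ± 0.954 with LiCl, 42.5 ± 1.91 in the knockout and 49.3 ± 1.43 with LiCl. Its rises of 0.57 and 0.21 differed by 0.36 ± 0.07 (adjusted p = 0.00276). Utp4 and Utp15, subunits of the UTP-A subcomplex that binds the precursor first, rose by 1.45 and 1.21 in wild type and by 1.11 and 0.86 in the knockout. The mean of Utp4 went from 14.5 ± 1.64 to 41.3 ± 4.46 FPKM in wild type and that of Utp15 from 4.09 ± 0.296 to 10.8 ± 0.140 FPKM. The difference between the genotypes passed for Utp15 (0.35 ± 0.10, adjusted p = 0.0247) and not for Utp4 (adjusted p = 0.188). Nop14 and Noc4l, which act together in yeast, rose by 1.19 and 0.91 in wild type and by 0.98 and 0.81 in the knockout.

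Heatr1 and Wdr43, also of UTP-A, rose by 0.78 and 0.51 in wild type and by 0.76 and 0.63 in the knockout. Utp6 of the UTP-B subcomplex rose by 0.36 and 0.40. Utp18, also of UTP-B, stood at 10.8, 10.9 and 10.4 FPKM in wild type and 25.3, 24.5 and 27.0 with LiCl, and at 14.5, 12.1 and 15.0 FPKM in the knockout and 6.03, 23.4 and 24.3 with LiCl. Replicate 1 of the knockout with LiCl was the lowest of all 12 libraries, while the other 2 of its group lay just below the LiCl libraries of wild type. The difference was 1.18 ± 0.38 in wild type (adjusted p = 0.0193) and 0.14 ± 0.38 in the knockout (adjusted p = 0.78), and without that library the latter was 0.75 (adjusted p = 9.99e-05), while the former missed the threshold without the LiCl library of wild type that has no number (1.14, adjusted p = 0.0505). Wdr75, of UTP-A, stood at 7.88, 5.92 and 8.10 FPKM in wild type and 10.99, 4.55 and 11.2 with LiCl, and at 9.10, 11.4 and 8.16 FPKM in the knockout and 11.3, 8.53 and 11.05 with LiCl. Its libraries overlapped in both genotypes (adjusted p = 0.584 and 0.774), with replicate 2 of wild type with LiCl the lowest of all, and without that library the difference in wild type was 0.56 (adjusted p = 0.0171).

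**Figure D3:**
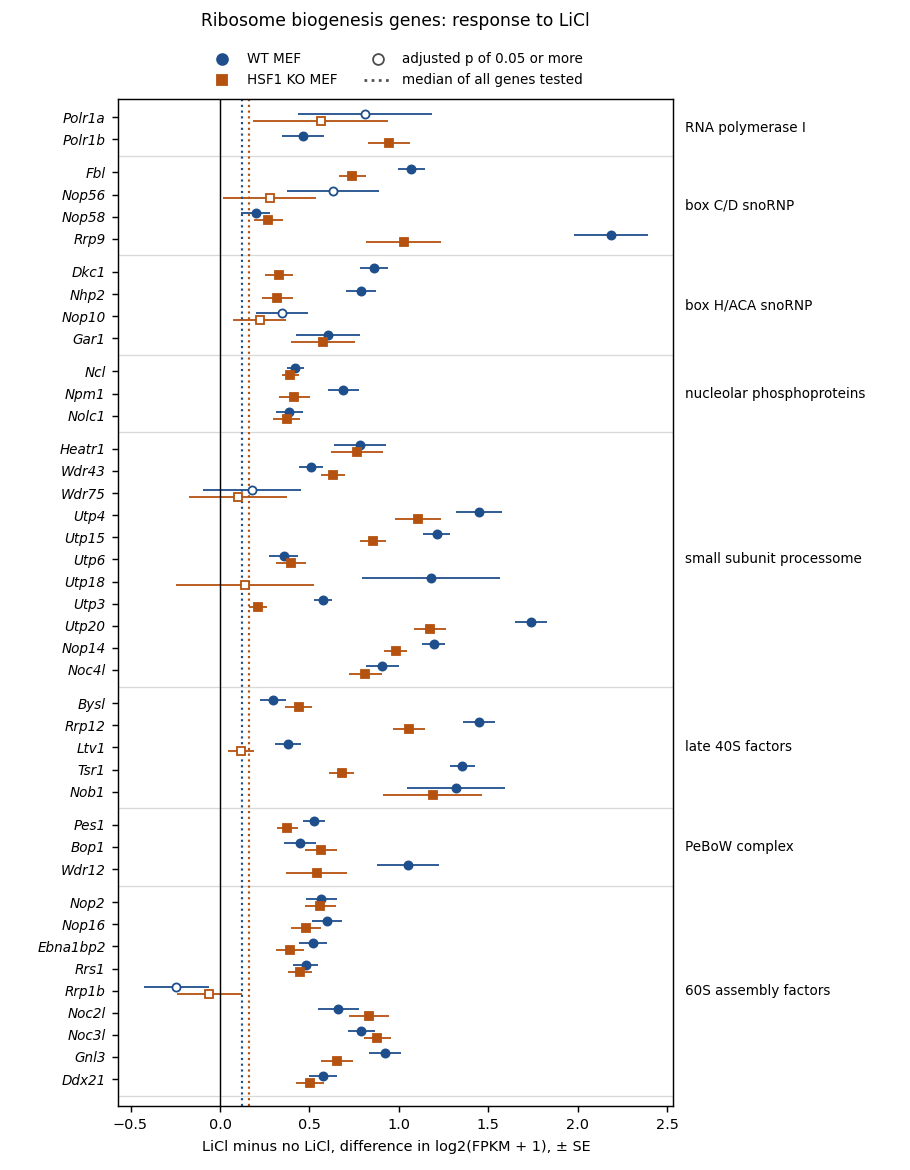
Difference in log2(FPKM + 1) between LiCl and no LiCl for the 41 genes by role, in wild type (blue circles) and the knockout (orange squares), with SE from limma as bars, open symbols where the adjusted p was 0.05 or more, and dotted lines at the medians of all genes tested. The filled symbols, 36 in wild type and 34 in the knockout, all lie to the right of 0.

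Factors of the late small subunit mature it on the way out of the nucleus and in the cytoplasm. The 5 genes of this role had the highest median rise of the roles in wild type, 1.32. In the knockout their median was 0.68, below those of the small subunit processome (0.76) and RNA polymerase I (0.75). The 9 other late factors of the small subunit, counted further below, had medians of 0.30 in wild type and 0.67 in the knockout. Tsr1, a GTPase-like factor of the cytoplasmic pre-40S particle, stood at 7.43, 8.50 and 8.09 FPKM in wild type and 21.4, 21.5 and 23.1 with LiCl, and at 16.7, 15.3 and 17.3 FPKM in the knockout and 27.2, 27.6 and 26.0 with LiCl. No group overlapped another. The rise was 1.35 ± 0.07 in wild type (adjusted p = 2.78e-08) and 0.68 ± 0.07 in the knockout (adjusted p = 1.11e-05), and the difference was 0.67 ± 0.10 (adjusted p = 0.000431). Tsr1 shares 1240 exonic bases with Srr on the other strand. The study names a stranded library kit, but whether the counting used strand is not given in the sources used here. How far reads of the pair were kept apart is therefore unknown. Srr itself went the other way, by −0.37 in wild type and −0.26 in the knockout.

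Rrp12, an export factor of pre-40S particles, stood at 3.48, 3.33 and 2.90 FPKM in wild type and 11.5, 9.98 and 10.2 with LiCl. Knockout libraries stood at 4.72, 4.30 and 5.11 FPKM and 10.6, 11.5 and 10.5 with LiCl. All LiCl libraries were higher, by 1.45 ± 0.09 in wild type (adjusted p = 1.24e-07) and 1.06 ± 0.09 in the knockout (adjusted p = 2.53e-06), with a difference of 0.39 ± 0.13 (adjusted p = 0.0391) that held in 14 of 25 alternatives. Nob1, the nuclease that makes the final cut of the small subunit RNA, stood at 7.38, 13.4 and 8.36 FPKM in wild type and 19.0, 29.8 and 27.4 with LiCl, and at 8.51, 6.96 and 11.2 FPKM in the knockout and 15.2, 21.6 and 28.8 with LiCl. Its libraries were spread within each group but those with LiCl were higher, by 1.32 and 1.19 (adjusted p = 0.00147 and 0.00346).

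Bysl, whose yeast relative is Enp1, stood at 7.74, 7.34 and 6.39 FPKM in wild type and 9.20, 8.89 and 8.92 with LiCl, and at 8.90, 8.92 and 8.88 FPKM in the knockout and 11.97, 12.9 and 12.4 with LiCl. It rose by 0.30 in wild type (adjusted p = 0.00426) and 0.44 in the knockout (adjusted p = 0.000414), and the former was not called after median-of-ratios scaling (0.14, adjusted p = 0.145). Ltv1, which leaves the pre-40S particle in the cytoplasm, stood at 12.8, 13.6 and 13.5 FPKM in wild type and 17.1, 17.3 and 18.5 with LiCl, and at 16.4, 14.7 and 15.1 FPKM in the knockout and 17.0, 18.2 and 15.4 with LiCl. The libraries overlapped in the knockout, where the difference of 0.12 did not pass (adjusted p = 0.194) and turned to −0.07 after median-of-ratios scaling. The rise in wild type was 0.38 (adjusted p = 0.00094), and the difference between the genotypes did not pass (adjusted p = 0.0842).

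The PeBoW complex of Pes1, Bop1 and Wdr12, which is needed to process the large subunit RNA, had all 3 members called higher in both genotypes. Wdr12 stood at 3.72, 3.01 and 2.57 FPKM in wild type and 8.20, 6.52 and 7.69 with LiCl, and at 6.45, 5.04 and 3.79 FPKM in the knockout and 7.29, 9.13 and 6.88 with LiCl. It was the lowest of the complex in every library and had its largest rise in wild type, 1.05 (adjusted p = 0.000276), against 0.54 in the knockout (adjusted p = 0.02), where the call was lost after median-of-ratios scaling, without the untreated library that has no number (0.38, adjusted p = 0.0776) and without replicate 2 with LiCl (0.43, adjusted p = 0.0752). Bop1 stood at 22.1, 21.9 and 19.4 FPKM in wild type and 30.5, 29.7 and 27.2 with LiCl, and at 27.0, 23.5 and 24.0 FPKM in the knockout and 35.7, 41.5 and 34.7 with LiCl. Pes1 stood at 25.1, 24.6 and 24.7 FPKM in wild type and 34.5, 36.9 and 37.0 with LiCl, and at 27.1, 28.1 and 28.7 FPKM in the knockout and 34.3, 39.6 and 36.2 with LiCl. The LiCl libraries of both were higher in both genotypes, by 0.45 and 0.56 for Bop1 and by 0.52 and 0.38 for Pes1, with adjusted p of at most 0.000995. Bop1 and Hsf1 are neighbours in the annotation, at chr15:76452989-76477277 and chr15:76477422-76501913 of GRCm38 on opposite strands, and Bop1 was not lower in the knockout (difference 0.23, adjusted p = 0.0652, without LiCl).

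Of the 9 other factors of the large subunit, 8 rose in both genotypes, with medians of 0.58 and 0.50. Gnl3, nucleostemin, a GTP-binding protein of the nucleolus, stood at 15.0, 16.4 and 16.2 FPKM in wild type and 29.6, 30.2 and 33.0 with LiCl, and at 23.6, 18.8 and 18.6 FPKM in the knockout and 33.3, 31.8 and 32.1 with LiCl. Noc3l stood at 7.38, 6.62 and 7.37 FPKM in wild type and 12.8, 12.9 and 13.4 with LiCl, and at 7.47, 7.67 and 8.88 FPKM in the knockout and 15.8, 15.2 and 15.6 with LiCl. The rise of Gnl3 was 0.92 in wild type and 0.66 in the knockout, that of Noc3l 0.79 and 0.88, with no overlap and adjusted p of at most 9.34e-05. Nop2, which methylates the large subunit RNA, stood at 18.6, 19.8 and 17.1 FPKM in wild type and 29.8, 27.9 and 25.9 with LiCl, and at 30.5, 27.5 and 27.3 FPKM in the knockout and 42.2, 46.3 and 38.9 with LiCl. LiCl and knockout went with rises of about the same size, 0.57 for LiCl in wild type and 0.60 for knockout without LiCl.

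Noc2l, the partner of Noc3l, rose by 0.66 in wild type and 0.83 in the knockout, and the RNA helicase Ddx21 by 0.58 and 0.50. Nop16 rose by 0.60 and 0.48, Ebna1bp2 by 0.52 and 0.39, and Rrs1, which helps to bring in the 5S particle, by 0.48 and 0.45. Rrp1b was the exception at a level close to the filter, with 0.521, 0.446 and 0.965 FPKM in wild type and 0.5995, 0.0979 and 0.479 with LiCl, and 0.833, 0.458 and 1.08 FPKM in the knockout and 0.663, 0.929 and 0.528 with LiCl. All 4 groups of Rrp1b overlapped (adjusted p = 0.264 and 0.801).

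The response differed between the genotypes for few of the genes. The wild type response was larger for 9 and the knockout response for 1, Polr1b, where 15.3% and 16.1% of all genes were called in these directions. The 9 were Fbl, Rrp9, Dkc1, Nhp2, Utp15, Utp3, Utp20, Rrp12 and Tsr1. The calls of Dkc1, Nhp2, Utp3, Utp20 and Tsr1 were kept in all 25 alternatives, that of Rrp9 in 23 and that of Utp15 in 17. The calls of Utp15, Rrp12, Fbl and Polr1b were each lost when any 1 of 6 to 10 of the 12 libraries was left out, with adjusted p of at most 0.112 (Polr1b). The median of the difference over the 41 genes was 0.13, and that of all genes −0.01. The share of genes called for a difference, 10 of 41, was below the 31.3% of all genes called in either direction.

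Without LiCl, the knockout already had higher levels of many ribosome biogenesis genes. Of the 41, 22 were higher and none lower (limma), where 17.8% of all genes were higher and 20.4% lower, and for 31 all 3 knockout libraries were above all 3 wild type libraries (22.5% of all genes). The median was 0.30, and that of all genes −0.03. These libraries are also the controls of the LiCl comparisons. The largest called differences were those of Rrp9 (1.07 ± 0.21, adjusted p = 0.00204), Tsr1 (0.95 ± 0.07, adjusted p = 1.24e-06), Nhp2 (0.91 ± 0.09, adjusted p = 9.22e-06) and Dkc1 (0.77 ± 0.08, adjusted p = 1.73e-05). Npm1 (0.66), Nop2 (0.60), Fbl (0.59), Wdr12 (0.56), Ncl (0.52) and Nop58 (0.51) followed. All box C/D proteins but Nop56 and all 3 nucleolar phosphoproteins were among the 22, and of the processome 5 of 11. The calls of Utp4, Utp15, Nop14, Noc4l, Wdr12, Ebna1bp2 and Gnl3 were each lost without some single library, with adjusted p of at most 0.147 (Nop14).

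With LiCl, 17 of the 41 were higher in the knockout and 2 lower, where 19.6% of all genes were higher and 23.0% lower. The lower genes were Utp20 (−0.46 ± 0.09, adjusted p = 0.00194) and Utp3 (−0.34 ± 0.05, adjusted p = 0.000254). Of the 22 genes higher without LiCl, 13 were called higher with LiCl too, among them Ncl (0.49), Nop2 (0.59), Nop58 (0.58) and Npm1 (0.38). The other 9 were Rrp9, Utp4, Utp15, Nop14, Noc4l, Rrp12, Wdr12, Ebna1bp2 and Gnl3, whose difference with LiCl ran from −0.13 (Utp15) to 0.20 (Noc4l). Polr1b, Bop1, Noc2l and Noc3l were called with LiCl alone. The calls of Fbl, Dkc1, Nolc1 and Noc3l with LiCl were lost without some single library, with adjusted p of at most 0.101 (Dkc1). A change of that difference was itself called for Fbl, Rrp9, Dkc1, Nhp2, Utp15, Utp3, Utp20, Rrp12, Tsr1 and Polr1b, since it is the same quantity as the difference between the LiCl responses.

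**Figure D4:**
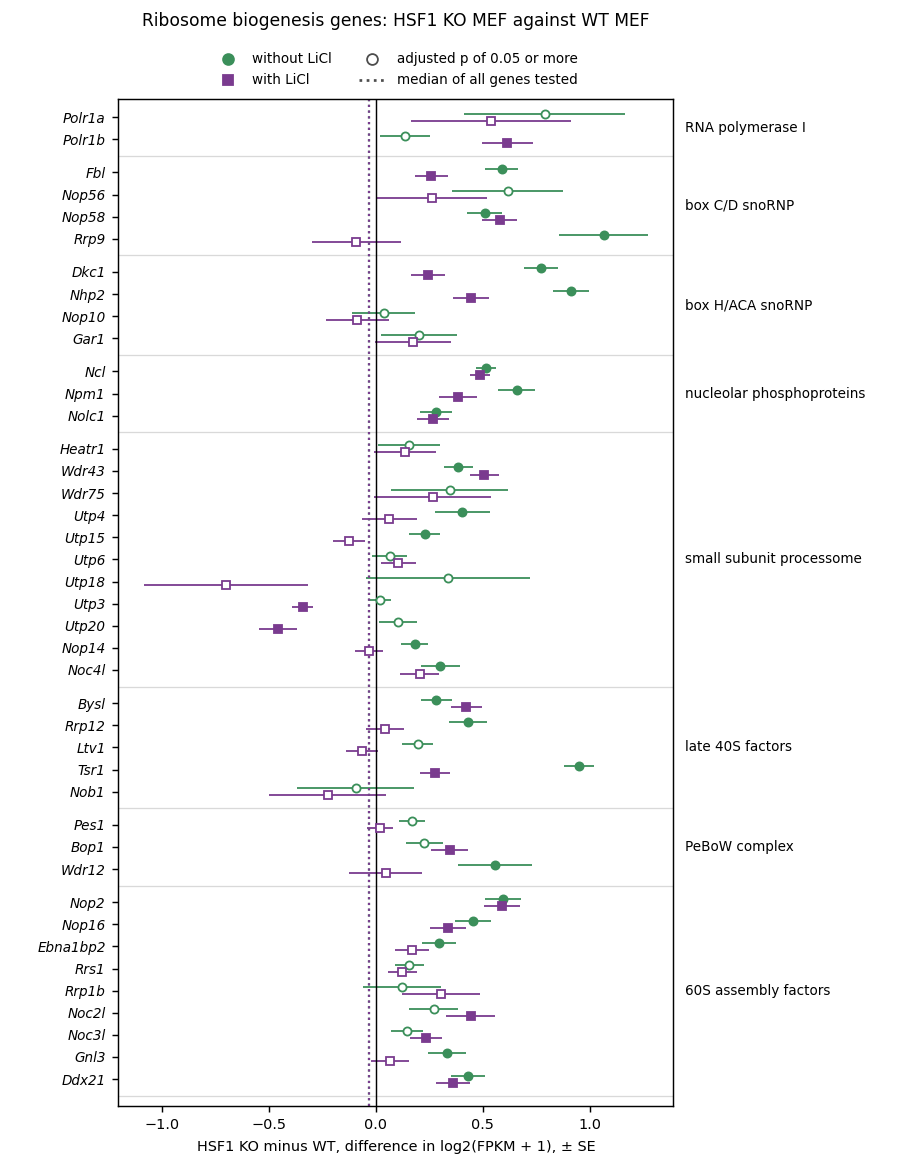
Difference in log2(FPKM + 1) between the knockout and wild type for the 41 genes by role, without LiCl (green circles) and with LiCl (purple squares), with SE from limma as bars, open symbols where the adjusted p was 0.05 or more, and dotted lines at the medians of all genes tested. The 22 filled circles lie to the right of 0, and of the filled squares 17 lie to the right and 2, Utp3 and Utp20, to the left.

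Myc went the opposite way in wild type, which was the reason to set it beside these genes, so its fall there is given without a test. It stood at 18.2, 15.0 and 13.7 FPKM in wild type and 2.51, 3.34 and 2.80 with LiCl, a difference of −2.09, with every LiCl library below every untreated one. In the knockout it stood at 24.99, 24.4 and 20.1 FPKM and 19.7, 21.4 and 14.5 with LiCl. The libraries overlapped in the knockout, and the difference of −0.32 ± 0.16 did not pass (adjusted p = 0.105), although it did after median-of-ratios scaling (−0.51, adjusted p = 0.0211) and after quantile normalization (−0.46, adjusted p = 0.0317). Myc RNA was thus lowest in wild type with LiCl, where the sum of the 41 genes was above that of both untreated groups. Without LiCl, Myc was higher in the knockout by 0.54 ± 0.16 (adjusted p = 0.0177), in the same libraries in which 22 of the 41 genes were higher, and this call was lost without replicate 2 of wild type (0.52, adjusted p = 0.0538), without its library that has no number (0.46, adjusted p = 0.0642), and without replicate 1 (0.49, adjusted p = 0.0617) or replicate 2 (0.51, adjusted p = 0.0593) of the knockout. MYC protein was not measured. Of 10 genes of MYC and its partners, Myc included, 3 rose and 4 fell with LiCl in wild type (38.1% and 27.1% of all genes). In the knockout 2 rose and 2 fell (36.5% and 21.1% of all genes).

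**Figure D5:**
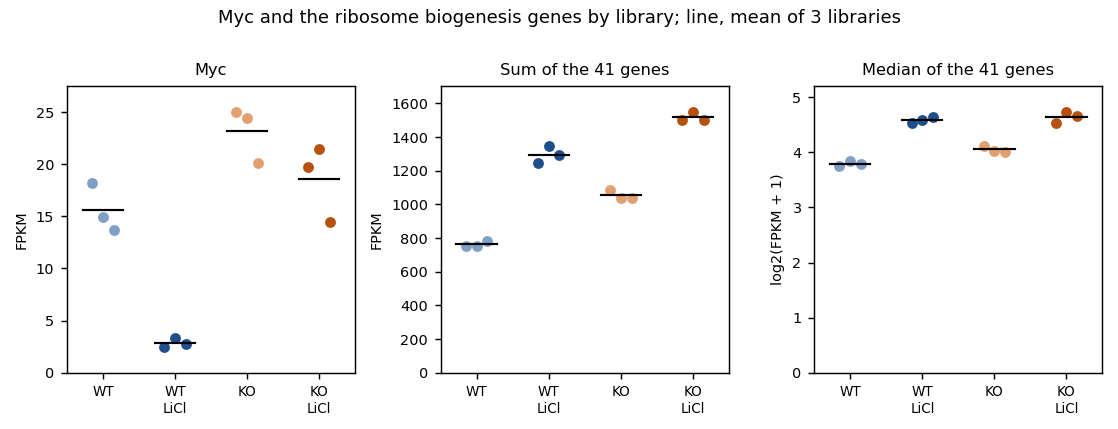
FPKM of Myc, summed FPKM of the 41 ribosome biogenesis genes and their median log2(FPKM + 1) in each of the 12 libraries (points), with the group mean as a line and axes from 0. Myc falls to between 2.51 and 3.34 FPKM in wild type with LiCl, while the sum rises from between 752 and 784 to between 1243 and 1347 FPKM.

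The other genes of the pathway, 124 in 6 lists that hold none of the 41, were counted in the same way. With LiCl 92 of them were higher and 5 lower in wild type (38.1% and 27.1% of all genes). In the knockout 85 were higher and 2 lower (36.5% and 21.1% of all genes). The medians were 0.63 and 0.56. Between the genotypes, 33 of the 124 were higher and 6 lower in the knockout without LiCl (17.8% and 20.4% of all genes), with a median of 0.12. With LiCl 16 were higher and 23 lower (19.6% and 23.0% of all genes), with a median of −0.0018. How these counts differ from those of the 41 genes was not tested. Among the other processome factors 26 of 31 rose in wild type and 22 in the knockout, with the smallest adjusted p for Pwp2 (2.06 in wild type, from 5.23 to 24.9 FPKM) and Wdr46 (1.58). Of 46 other factors of the large subunit, 38 rose in wild type and 33 in the knockout, with the smallest adjusted p for Mak16 (1.60, from 33.1 to 102 FPKM) and Brix1 (1.62), while the helicase Ddx24 fell in the knockout (−0.26). Of 9 other late factors of the small subunit, 5 rose in wild type, with the smallest adjusted p for the kinase Riok2 (1.01) and the Nob1 partner Pno1 (1.78), and the related kinases Riok1 in wild type (−0.20) and Riok3 in the knockout (−0.17) fell. These values came from the same fit (limma, adjusted p from 1.27e-09 for Mak16 to 0.0497 for Riok1).

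Among 13 other subunits and factors of RNA polymerase I, 7 rose and 2 fell in wild type (38.1% and 27.1% of all genes). In the knockout 9 of them rose (36.5% of all genes). Rrn3, the initiation factor that recruits the polymerase, went from 17.9 to 50.8 FPKM in wild type (1.45, adjusted p = 1.98e-07), and the subunit Polr1c rose by 0.71. The termination factor Ttf1 (−0.61, adjusted p = 0.0369) and the subunit gene Cd3eap (−0.21, adjusted p = 0.0315) fell in wild type. Of 13 snoRNP assembly factors, 9 rose in wild type and 10 in the knockout, with the smallest adjusted p for Wrap53 (1.68) and the ATPase Ruvbl1 (0.76), and Pih1d1 fell in wild type (−0.51). Of 12 genes of the RNA exosome and its helicase, which trims ribosomal RNA, 7 rose in each genotype, with the smallest adjusted p in wild type for Exosc9 (1.24) and Mtrex (0.71), and Exosc5 fell in wild type (−0.51).

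Markers of cell state and cell type moved in the same libraries, and their part in these results was not tested. Of 24 cell cycle genes, 7 rose and 6 fell with LiCl in wild type, where 38.1% and 27.1% of all genes did. Their sum there went from between 254 and 267 to between 313 and 327 FPKM. In the knockout 18 rose and 1 fell (36.5% and 21.1% of all genes). The sum there went from between 314 and 336 to between 555 and 578 FPKM. Without LiCl 21 of the 24 were higher and 2 lower in the knockout (17.8% and 20.4% of all genes). Of 10 fibroblast markers 9 fell with LiCl in wild type and 8 in the knockout (27.1% and 21.1% of all genes). Their sums were 5566 to 6290.4 FPKM in wild type and 1859 to 2011 with LiCl. In the knockout they were 3875 to 4135 FPKM and 1786 to 1874 with LiCl. All 10 macrophage markers were higher in the knockout than in wild type without LiCl and all fell there with LiCl (17.8% and 21.1% of all genes). In wild type the macrophage markers did not move together, as 2 of the 10 rose with LiCl and 5 fell (38.1% and 27.1% of all genes). The 2 that rose were Cd68 and Cd14. The macrophage sums were 114 to 121 FPKM in wild type, 40.6 to 44.4 with LiCl, 1319 to 1529.6 in the knockout and 100.4 to 116 with LiCl. Lyz2, which fell in wild type, made up most of the sum there without LiCl, at a mean of 92.6 FPKM. Ptprc and Aif1 were listed at 0 in every library but those of the untreated knockout. Of the epithelial markers Krt18, Krt19 and Cldn4 were tested and all rose with LiCl in both genotypes, to sums with Krt8 of at most 36.4 FPKM. Krt8 was under the filter and not tested, and its mean in wild type was lower with LiCl (0.714 and 0.326 FPKM without and with it). Epcam and Cdh1 were looked for but were not found among the genes with values.

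Features of the gene models bear on single values. Of the 41 genes, 22 were listed with 1 transcript and 19 with several, and in 14 of these a single transcript held at least 80% of the level. Exonic bases shared with a gene on the other strand were found for 16 of the 41, from 5 bases for Nop56 to 1240 bases for Tsr1, with 598 for Noc2l and 361 for Bysl, and none shared exonic bases on its own strand. The annotation placed 21 genes of small nucleolar RNAs inside 7 of the 41 on the same strand, Nop56, Nop58, Dkc1, Ncl, Wdr43, Tsr1 and Gnl3. Their part in the values of these genes was not tested.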

How the data were processed

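RNA of 12 mouse MEF libraries was sequenced after poly(A) selection, for which the labels also name removal of ribosomal RNA. The submitters' processing notes name HISAT2 2.0.5, StringTie, cutadapt and GRCm38. The authors deposited 1 table of transcript levels for all libraries. Its unit is not given in the sources used here and was read as FPKM from the values and the tools, so read depth is unknown, and only transcripts with a mean of at least 0.5 FPKM in some group were in the deposited table. The annotation release was not given either. Transcript IDs were matched without their version to GENCODE vM21, which left 70 transcripts unmatched, and summed by gene ID. Symbols on several gene IDs were kept apart.

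Group means were fitted to log2(FPKM + 1) of all 12 libraries with limma 3.58.1 (R 4.3.3, variance trend) for 12279 genes, those whose mean over the libraries reached 0.5 FPKM, and p-values were adjusted over these by the Benjamini-Hochberg method with a threshold of 0.05. Python 3.11.15 with pandas 2.3.3 was used for the counts, and the fit was tested on simulated data. Each group had a replicate 1, a replicate 2 and a library with no number. Deviations from the group means correlated at 0.125 to 0.195 in pairs of libraries with no number. In pairs sharing the number 1 or 2 they correlated at −0.0101 to 0.138. No source says that a number marks a shared culture or day, so no pairing was used.

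Alternatives covered the pseudocount, the filter on low values, the scaling, the samples in the fit, the highest transcript of a gene, a replicate block and leaving out each library. The members and the gene lists were chosen with earlier results of these data known. Of each list of other pathway genes, the 2 with the smallest adjusted p with LiCl in wild type were named, and any that fell.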

Additional observations from a re-analysis of the deposited data

Results flagged for a closer look

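Responses to LiCl that differed between the genotypes by the test of the difference itself (limma, adjusted p below 0.05) are given as the response of wild type minus that of the knockout, in log2(FPKM + 1). It was 1.158 for Rrp9, 0.6733 for Tsr1, 0.5619 for Utp20, 0.5288 for Dkc1 and 0.4677 for Nhp2. It was 0.3894 for Rrp12, 0.3627 for Utp3, 0.3542 for Utp15 and 0.3287 for Fbl. It was −0.4813 for Polr1b, whose rise was larger in the knockout. For Myc, whose fall in wild type was known when it was chosen, it was −1.776 as a description. All 11 responses had the same sign in both genotypes.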

How the results depend on the processing

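FPKM carry no read depth, so the counting error of a single value is unknown, and 3 libraries a group limit the precision. The cause of a changed value was not tested. Without replicate 1 of the knockout with LiCl Utp18 was called there, and without replicate 2 of wild type with LiCl Wdr75 was called in wild type, as given above.

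The median difference of the 41 genes with LiCl in wild type was 0.46 after median-of-ratios scaling, 0.49 after quantile normalization and 0.76 in the libraries numbered 1 and 2, and ran from 0.59 to 0.71 when single libraries were left out. In the knockout it was 0.36 after median-of-ratios scaling. The ratio of the summed level was then 1.4999 in wild type and 1.25 in the knockout. Of the other pathway genes, those lower in wild type numbered 3 with equal sums and 2 in the numbered libraries, and 2 to 5 with single libraries left out. In the knockout they numbered 5 after median-of-ratios scaling and 1 in the numbered libraries, and 0 to 3 with single libraries left out.

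Polr1b kept its larger response in the knockout in 7 of 25 alternatives, and the count of such genes was 0 with pseudocounts of 0.1 and 0.5, each other scaling, the highest transcript, both replicate blocks and the numbered libraries, and 0 to 1 with single libraries left out. Larger responses in wild type numbered 5 in the numbered libraries and 6 to 10 with single libraries left out. Without LiCl, 17 to 26 of the 41 were higher in the knockout with single libraries left out, and with LiCl 13 to 17.

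The difference of Myc with LiCl in the knockout was −0.51 after median-of-ratios scaling, −0.46 after quantile normalization and −0.32 (adjusted p = 0.0475, limma) with a replicate block. That without LiCl between the genotypes was 0.46 (adjusted p = 0.354) from the highest transcript and ran from 0.46 to 0.65 with single libraries left out.

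The sign turned for 4 genes in comparisons they had not passed. In the knockout it was −0.0836 (median-of-ratios), −0.0638 (quantile) and −0.0439 (numbered libraries) for Wdr75, −0.0517 and −0.122 (median-of-ratios, numbered libraries) for Utp18, −0.0743 and −0.0399 (median-of-ratios, quantile) for Ltv1 and 0.13 (numbered libraries) for Rrp1b. With single libraries left out Wdr75 in wild type ran from −0.0138 to 0.56, Utp18 in the knockout from −0.18 to 0.75 and Rrp1b there from −0.20 to 0.0552.

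The replicate block was run over all 12 libraries and over the numbered ones, the latter also without a block as an alternative chosen after seeing the data. With the block over 12 libraries 38 of the 41 were higher with LiCl in wild type and 34 in the knockout. Polr1a (adjusted p = 0.0448, limma) and Nop56 (adjusted p = 0.0163) were then called in wild type, and the calls of Polr1b for the difference between the responses (adjusted p = 0.0595) and of Nop14 between the genotypes without LiCl (adjusted p = 0.0556) were lost. With the block in the numbered libraries, 33 and 31 were, and 13 and 11 were higher in the knockout without and with LiCl. All other counts stayed within 1.5 times, and all other differences that were computed kept their direction.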
